A study of Mus musculus with 6 samples.

Results

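The RIG-I-like receptors are 3 related helicases that detect RNA in the cytosol, and this account follows 10 genes of their pathway in dendritic cells taken from tumours. The genes were chosen by symbol: the sensors Ddx58 (also named Rigi, encoding RIG-I), Ifih1 (MDA5) and Dhx58 (LGP2), the ubiquitin ligases Trim25 and Rnf135, the adaptor Mavs, the kinases Tbk1 and Ikbke, the transcription factor Irf3, and the mitochondrial regulator Nlrx1. All 10 were found among the 26519 genes of the count table, and all 10 passed the filter on low counts that left 12580 genes for testing. The lowest count of any of them in a library was 129 and the highest 3361.

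Viral or misplaced cellular RNA makes RIG-I and MDA5 expose their caspase recruitment domains, which bind the same domain of MAVS, a protein anchored in the outer mitochondrial membrane. MAVS then assembles into filaments that recruit TRAF proteins and the kinases TBK1 and IKKε, and these phosphorylate IRF3, which enters the nucleus and switches on type I interferon genes. Dendritic cells use this route to detect viruses and the RNA of dying cells, and the sensors are themselves induced by interferon.

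RNA was sequenced from 6 samples of tumour-infiltrating dendritic cells, collected on day 10 after inoculation of MC38 cells, a mouse colon carcinoma line. The recipients were WT mice (wild-type, 3 samples) or MAVS knockout mice (3 samples), so in both groups the tumour cells were the same line and the host alone carried the knockout. Strain, age, sex, the deleted part of Mavs and the way the cells were isolated are not stated in the sources at hand, nor whether each replicate was a separate animal. The p-values therefore measure the spread between these samples, which may be technical.

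Library totals ran from 14466640 to 20851733 counts. Markers of dendritic cells were present in every library, with the integrin gene Itgax at 246 ± 27.4 CPM (counts scaled to a common library total; SD, n = 3) for wild-type hosts against 293 ± 22.3 CPM for knockout hosts, but macrophage markers were abundant too. The summed level of 12 macrophage markers was 26610 to 31868 CPM in the wild-type libraries, against 28330 to 35876 CPM in the knockout libraries. Most of that sum was Lyz2, with means of 21636 and 22105 CPM. Of the 12 log2 fold changes 9 were positive and 3 negative, and none passed (edgeR; 4 by DESeq2). Every knockout library was above every wild-type library for 7 of them and below for 1. Over all tested genes these shares were 11.2% and 10.6%. The 7 monocyte markers summed to 1850 to 3185 CPM against 4441 to 13696 CPM, but this rise followed 1 gene, Chil3 (means 1345 against 7386 CPM). Chil3 passed (2.46, edgeR adjusted p = 0.036) and the other 6 did not. The list held 3 positive and 4 negative log2 fold changes, with a median of -0.17. For Ccr2 every knockout library was below every wild-type library. Among markers of cDC1, the cross-presenting dendritic cell subset, 4 of 10 were lower in knockout samples (edgeR adjusted p below 0.05). Of all tested genes 1.05% were called lower. Of 10 general dendritic cell markers 5 had positive and 5 negative log2 fold changes. Of these Flt3 (-2.01, edgeR adjusted p = 0.011) and Zbtb46 (-1.20, edgeR adjusted p = 0.0402) were lower, Ccr7 (1.12, edgeR adjusted p = 0.0288) was higher and 7 did not pass. The part of these differences in the values that follow was not tested. In such bulk samples fewer cells of a type and less RNA per cell cannot be told apart.

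The promoters of 9 of the 10 members were matched in RefSeq (GRCm38.p6, the assembly called mm10), each as the 250 bases before and 50 after the transcription start. They were searched on both strands for GAAANNGAAA, the core of the interferon-stimulated response element to which interferon-activated factors and IRF proteins bind. Of the 9 members, 2 held it, Ddx58 and Ifih1, with 1 match each. The remaining sensor, Dhx58, was the member without a matched promoter and was not searched. Of all 27025 genes with promoters in that set, with no filter on length, 1079 (3.99%) held GAAANNGAAA in any of them. Of 20 matched genes on a list of interferon-induced genes 12 did. The promoters of Ddx58 and Ifih1 are shown with the match in capitals, beside that of Mavs, in which those letters were not found.
Ddx58 (chr4:40239776-40240075, minus strand): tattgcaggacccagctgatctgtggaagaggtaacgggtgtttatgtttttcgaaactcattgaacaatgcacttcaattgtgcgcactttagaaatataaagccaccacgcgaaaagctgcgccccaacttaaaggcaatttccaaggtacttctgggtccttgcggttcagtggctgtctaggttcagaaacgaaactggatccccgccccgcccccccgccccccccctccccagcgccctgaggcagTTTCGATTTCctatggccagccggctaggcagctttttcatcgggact
Ifih1 (chr2:62646206-62646505, minus strand): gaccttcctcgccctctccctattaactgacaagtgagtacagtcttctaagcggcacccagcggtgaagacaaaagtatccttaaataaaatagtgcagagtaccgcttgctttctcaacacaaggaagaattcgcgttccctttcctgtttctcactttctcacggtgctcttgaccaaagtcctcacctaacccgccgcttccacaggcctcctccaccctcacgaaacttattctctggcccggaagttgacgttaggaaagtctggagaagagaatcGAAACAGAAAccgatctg
Mavs (chr2:131233813-131234112, plus strand): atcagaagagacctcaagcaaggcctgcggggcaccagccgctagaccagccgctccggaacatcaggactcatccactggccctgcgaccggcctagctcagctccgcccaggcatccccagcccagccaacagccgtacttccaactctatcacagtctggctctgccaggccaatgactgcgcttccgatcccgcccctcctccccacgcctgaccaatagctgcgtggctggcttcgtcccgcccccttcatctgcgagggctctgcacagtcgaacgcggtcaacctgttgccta
The match in Ddx58 began 2 bases after the first transcribed base, and lay on the opposite strand to the gene. That in Ifih1 began 32 bases after it, on the strand of the gene. A match describes the letters and does not show that a factor was bound.

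**Figure D1:**
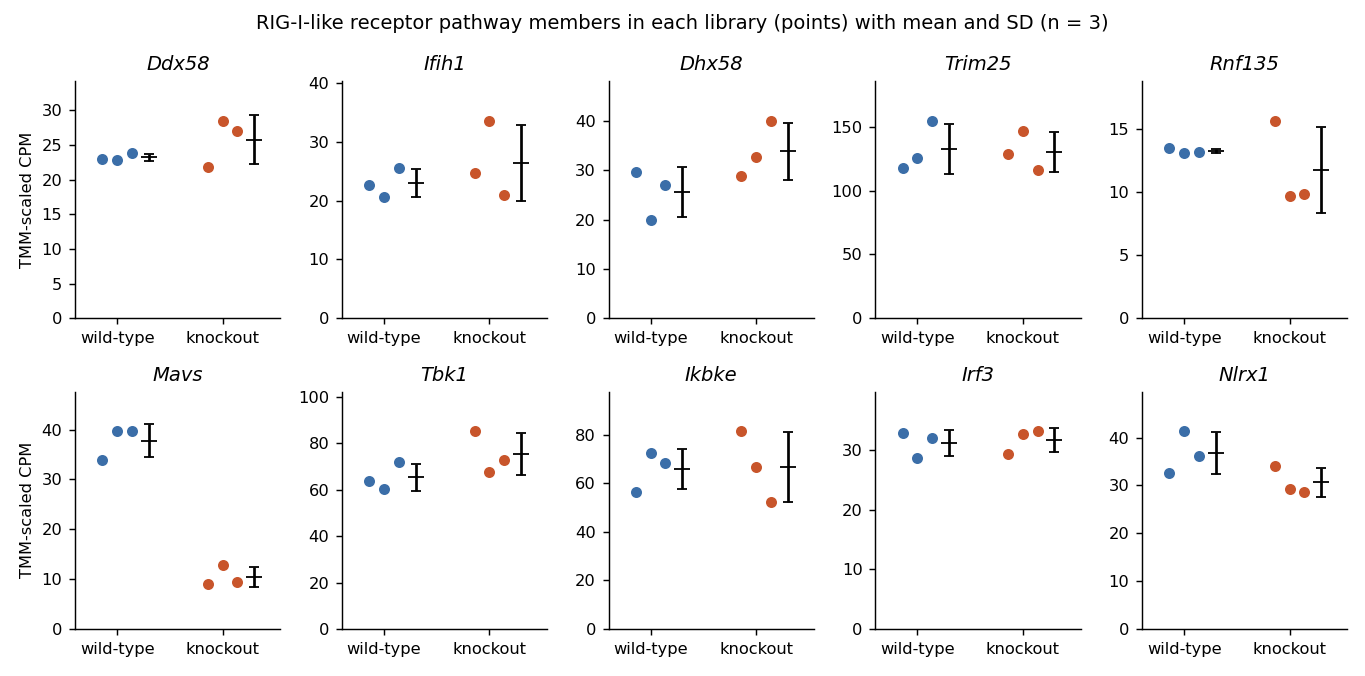
TMM-scaled CPM (y axis, from 0) of the 10 members in each of the 3 wild-type (blue) and 3 knockout (orange) libraries, with the group mean and SD as a black bar. Mavs separates the groups, at 33.9 to 39.7 CPM against 8.99 to 12.8 CPM, and for each of the other 9 members the groups overlap. Of all tested genes 21.8% had groups that did not overlap.

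Mavs, the targeted gene, was lower in all 3 knockout samples and was the sole member to pass the test. It lies on chromosome 2, 131234063 to 131248025, plus strand (ENSMUSG00000037523), and no other gene model overlaps it. Wild-type replicates 1, 2 and 3 had 33.9, 39.7 and 39.7 CPM, and the knockout replicates 8.99, 12.8 and 9.45 CPM. The groups did not overlap, and 10.6% of all tested genes had every knockout library below every wild-type library. The knockout mean was 27.6% of the wild-type mean, and single knockout libraries stood at 23.8% to 33.9% of it. The log2 fold change was -1.86 (SE 0.18, 95% interval -2.26 to -1.45, edgeR adjusted p = 0.0017), a ratio of 0.276, and 1.05% of tested genes were called lower.

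Transcripts counted to Mavs thus numbered 160, 191 and 129 in the knockout libraries, against 688, 743 and 861 in wild-type. Counts per gene do not show which exons they came from. The knockout was in the host and not in the MC38 cells, so markers of tumour epithelium were read beside this value. The keratins Krt8, Krt18 and Krt19 had 0 to 3 counts in every library, Krt20 0 to 1, Cldn7 0 to 10 and Krt7 0 to 13. Epcam stood at 6.03 to 16.2 CPM in the wild-type and 5.17 to 7.91 CPM in the knockout libraries. Cdh1 stood at 353 to 525 CPM in the wild-type and 411 to 671 CPM in the knockout libraries, and neither passed (edgeR). Whether tumour RNA contributed to the Mavs counts was not tested. By size of fall Mavs was number 25 of the 132 genes that fell, and by p-value number 7 of all genes tested.

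Of the 10 members 1 passed, and 2.81% of all tested genes did (354 of 12580; edgeR's quasi-likelihood F test, adjusted over all genes by the method of Benjamini and Hochberg). The same member was called by the DESeq2 Wald test and by limma-voom, which called no other, and Mavs was also the sole member with an unadjusted p below 0.05, as 16.0% of tested genes had. Of the other 9 members, 6 had positive and 3 had negative log2 fold changes, with a median of 0.03, against -0.0022 over all genes tested. Their adjusted p ran from 0.333 to 0.966. For each of the 9 the 95% interval lay inside a 2-fold change in either direction, and for 5 of them, Ddx58, Trim25, Tbk1, Ikbke and Irf3, inside a 1.5-fold change. These intervals are per gene and were not widened for the number of genes read.

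**Figure D2:**
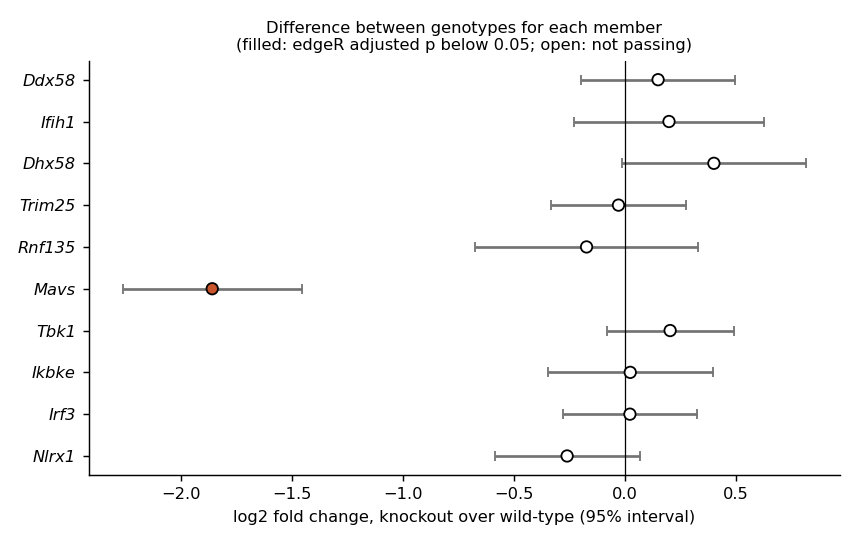
Log2 fold change of each member, knockout over wild-type (x axis), with the 95% interval of the edgeR fit as a horizontal bar, 3 samples a group. Mavs stands at -1.86 and the other 9 members between -0.26 and 0.40, with intervals that include 0.

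The sensors come first in the pathway. Ddx58 (chromosome 4, 40203773 to 40239828, minus strand; ENSMUSG00000040296) encodes RIG-I, which recognises short double-stranded RNA with a triphosphate end. It had 23.0, 22.7 and 23.8 CPM in the wild-type and 21.8, 28.5 and 27.0 CPM in the knockout replicates. The wild-type libraries lay close together, with a coefficient of variation of 2.44%, and 2 knockout libraries were above them and 1 below. Ddx58 thus had a log2 fold change of 0.15 (SE 0.16, 95% interval -0.19 to 0.50, edgeR adjusted p = 0.72).

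Ifih1 (chromosome 2, 62595798 to 62646255, minus strand; ENSMUSG00000026896) encodes MDA5, the sensor of long double-stranded RNA. It had 22.7, 20.7 and 25.6 CPM in wild-type versus 24.7, 33.6 and 20.9 CPM in knockout replicates. The knockout libraries spread 1.60-fold from lowest to highest, and only knockout replicate 2 was above every wild-type library. The log2 fold change was 0.20 (SE 0.19, 95% interval -0.23 to 0.63, edgeR adjusted p = 0.694), and it was -0.0085 without knockout replicate 2.

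Dhx58 (chromosome 11, 100694884 to 100704271, minus strand; ENSMUSG00000017830) encodes LGP2, a helicase without caspase recruitment domains that modulates the other sensors. It had 29.8, 20.0 and 27.0 CPM in wild-type versus 28.8, 32.7 and 40.1 CPM in knockout replicates. Knockout replicates 2 and 3 were above every wild-type library, while knockout replicate 1 was below wild-type replicate 1. After Mavs this was the member with the largest difference and the smallest p, at a log2 fold change of 0.40 (SE 0.19, 95% interval -0.01 to 0.82, edgeR adjusted p = 0.333). Without wild-type replicate 2, the library with the lowest Dhx58, the log2 fold change was 0.25. Without knockout replicate 3, the highest, it was 0.27.

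The 3 sensors were compared across libraries with 23 other interferon-induced genes, each as log2 CPM minus its mean over the 6 libraries. Wild-type replicate 2 was lowest for Dhx58 (-0.53) and Ifih1 (-0.23), and its median over the 23 genes was -0.55, the lowest of the 6. Knockout replicate 2 was highest for Ddx58 (0.22) and Ifih1 (0.46), and its median over the 23 genes was 0.32, the highest of the 6. Knockout replicate 3 split the sensors, with Dhx58 at 0.46 and Ifih1 at -0.21. Summed over the 3 sensors the level was 75.5, 63.4 and 76.4 CPM in wild-type against 75.3, 94.8 and 88.0 CPM in knockout libraries, groups that overlap because knockout replicate 1 lay below 2 of the wild-type libraries.

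**Figure D3:**
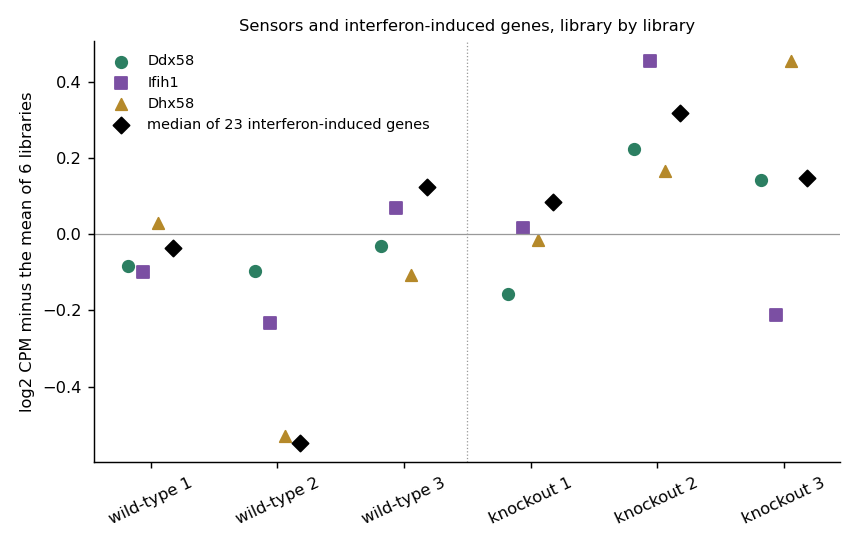
Log2 CPM minus the mean of the 6 libraries (y axis) for Ddx58, Ifih1 and Dhx58 and for the median of 23 other interferon-induced genes, in each library (x axis). Wild-type replicate 2 is lowest for that median (-0.55) and for Dhx58 (-0.53), and knockout replicate 2 is highest for the median (0.32).

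Both ubiquitin ligases act on RIG-I. Trim25 (chromosome 11, 88999376 to 89020293, plus strand; ENSMUSG00000000275), long described as the ligase that modifies its caspase recruitment domains, had 118, 126 and 155 CPM in wild-type versus 128, 146 and 116 CPM in knockout replicates. The highest library was wild-type and the lowest knockout, and the other 4 lay between them in mixed order. Its log2 fold change was -0.03 (SE 0.14, 95% interval -0.33 to 0.27, edgeR adjusted p = 0.953). Rnf135 (chromosome 11, 80183851 to 80199757, plus strand; ENSMUSG00000020707), also called Riplet, modifies the helicase and tail of RIG-I. It had 13.5, 13.1 and 13.2 CPM in wild-type versus 15.7, 9.72 and 9.81 CPM in knockout replicates. The coefficient of variation was 1.32% in wild-type and 29.0% in knockout samples, against medians of 13.7% and 11.4% over the 8988 genes with a mean of at least 5 CPM. Knockout replicate 1 was the highest of the 6 libraries and the other 2 knockout libraries were the lowest. The log2 fold change of -0.17 (SE 0.23, 95% interval -0.67 to 0.33, edgeR adjusted p = 0.797) averages over that split, which rests on 279, 145 and 134 counts. Without knockout replicate 1 it was -0.44, without replicate 2 -0.05 and without replicate 3 -0.057.

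The kinases TBK1 and IKKε phosphorylate IRF3. Tbk1 (chromosome 10, 121546455 to 121586787, minus strand; ENSMUSG00000020115) had 63.7, 60.5 and 71.9 CPM in wild-type versus 85.2, 67.7 and 73.0 CPM in knockout replicates. Knockout replicates 1 and 3 were above every wild-type library, and knockout replicate 2 was below wild-type replicate 3. Its log2 fold change was 0.20 (SE 0.13, 95% interval -0.08 to 0.49, edgeR adjusted p = 0.504). Ikbke (chromosome 1, 131254343 to 131279606, minus strand; ENSMUSG00000042349), the inducible kinase of the pair, had 56.5, 72.3 and 68.3 CPM in wild-type versus 81.4, 66.6 and 52.4 CPM in knockout replicates. Here the highest and the lowest of the 6 libraries were both knockout. Between groups Ikbke differed by 0.03 on the log2 scale (SE 0.17, 95% interval -0.35 to 0.40, edgeR adjusted p = 0.966).

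Irf3 (chromosome 7, 44997648 to 45002848, plus strand; ENSMUSG00000003184), the factor that carries the signal into the nucleus, was the most even member. It had 32.9, 28.7 and 32.0 CPM in wild-type versus 29.4, 32.7 and 33.2 CPM in knockout replicates, a 1.16-fold span over all 6 libraries. Irf3 differed by 0.02 on the log2 scale (SE 0.14, 95% interval -0.28 to 0.33, edgeR adjusted p = 0.961). IRF3 is controlled mainly by phosphorylation, which RNA counts do not measure.

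Nlrx1 (chromosome 9, 44252717 to 44268599, minus strand; ENSMUSG00000032109) encodes a mitochondrial protein of the NOD-like receptor family described as a brake on MAVS. It had 32.5, 41.3 and 36.3 CPM in wild-type versus 34.0, 29.2 and 28.6 CPM in knockout replicates. Knockout replicates 2 and 3 were below every wild-type library, and knockout replicate 1 was above wild-type replicate 1. The log2 fold change was -0.26 (SE 0.15, 95% interval -0.59 to 0.07, edgeR adjusted p = 0.447), the largest negative value after Mavs.

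No source at hand states the strand setting of the counting, so shared exons were measured. Irf3 shares 2.56% of its exonic bases with Bcl2l12 on the other strand, which had 41 to 82 counts against 453 to 695 for Irf3. Dhx58 shares 4.31% with an antisense gene of 0 to 2 counts. Ikbke shares 1.76% and 0.72% with 2 antisense models of at most 4 and 6 counts. Nlrx1 shares 11.88% with a model that is absent from the count table, so its counts are not known.

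Levels of different members were compared per kilobase of exon. In wild-type samples Trim25 (23.1 ± 3.39 CPM per kb, SD, n = 3) and Tbk1 (16.7 ± 1.50) stood highest. Mavs came next at 11.3 ± 0.993, and each of these 3 was separated from its neighbour in every library. Irf3 (9.07), Dhx58 (7.83), Ikbke (7.29), Nlrx1 (6.38) and Rnf135 (6.19) followed, each of these 5 overlapping the next of them, and Ddx58 (3.29 ± 0.0802) and Ifih1 (2.81 ± 0.302 CPM per kb) were lowest and did not overlap. In knockout samples Trim25 (22.6 ± 2.68) and Tbk1 (19.3 ± 2.29 CPM per kb) overlapped at the top. Mavs was then the lowest of the 10 at 3.11 ± 0.624 CPM per kb, overlapping Ifih1 (3.23 ± 0.796), which overlapped Ddx58 (3.65 ± 0.498).

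This order depends on gene length. With the longest principal transcript in place of all exonic bases, a choice made after seeing the data, Mavs was number 5 in wild-type samples instead of number 3, behind Ikbke and Irf3, and number 10 in knockout samples with either length. Of the sensors, Ddx58 and Ifih1 were numbers 9 and 10 in wild-type samples with either length. Dhx58 was number 5 there by all exonic bases and number 6 by the principal transcript.

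**Figure D4:**
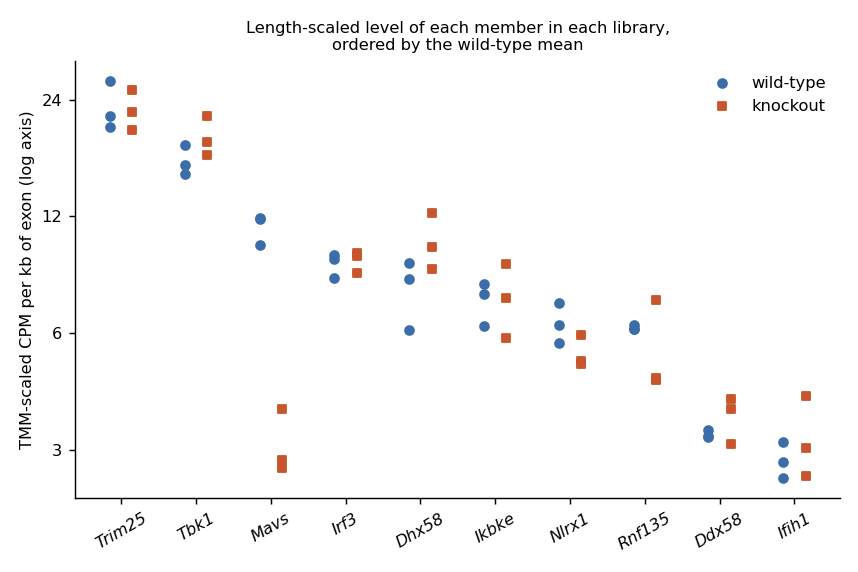
Length-scaled level (TMM-scaled CPM per kb of exon, log axis) of each member in the 3 wild-type libraries (circles) and 3 knockout libraries (squares), ordered by the wild-type mean. Mavs is number 3 in wild-type at 11.3 CPM per kb and lowest in knockout samples at 3.11 CPM per kb, while for each of the other members the groups overlap.

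Further genes of the pathway were read as 4 lists, and none of their 88 members passed the test (edgeR). An unadjusted p below 0.05 was found for 11 of the 88, a smaller share than the 16.0% of all tested genes. Among 22 other RNA sensors and sensor cofactors, 13 log2 fold changes were positive and 9 negative, with a median of 0.04. The helicase gene Dhx33 was lower in every knockout library, at 21.7 ± 0.970 against 14.4 ± 1.90 CPM (SD, n = 3 each; -0.60, edgeR adjusted p = 0.102), and was the 1 gene of this list called by DESeq2. Zbp1, a sensor of Z-form nucleic acid, stood at 0.62 (edgeR adjusted p = 0.215). Of this list 4 members had groups that did not overlap (4 of 22), a share near the 21.8% of all genes tested.

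Of 24 signalling partners downstream of MAVS none passed (edgeR; 2 at an unadjusted p below 0.05, 0 by DESeq2 and 0 by limma-voom), with a median of 0.04. Nfkbia, the NF-kB inhibitor that NF-kB itself induces, had 849 ± 67.1 CPM in wild-type against 1058 ± 55.4 CPM in knockout samples (SD, n = 3 each; 0.32, edgeR adjusted p = 0.129). The TBK1 scaffold Tank stood at 0.26 and the NF-kB subunit Rela at 0.26. Every knockout library was above every wild-type library for 4 of the 24, these 3 among them, and for 11.2% of all genes tested.

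Of 27 negative regulators of the pathway none passed (edgeR; 3 at an unadjusted p below 0.05, 1 by DESeq2 and 0 by limma-voom), with a median of 0.02. The gene called by DESeq2 was March5, a mitochondrial ubiquitin ligase that degrades MAVS aggregates. It had 35.0 ± 6.29 CPM in wild-type against 51.6 ± 6.24 CPM in knockout samples (SD, n = 3 each; 0.56, edgeR adjusted p = 0.105). The autophagy gene Atg5 stood at 0.37 (edgeR adjusted p = 0.168) and Nlrc5, better known as the activator of MHC class I genes, at 0.42 (edgeR adjusted p = 0.242).

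Of 15 mitochondrial partners of MAVS and NLRX1 none passed (edgeR; 1 at an unadjusted p below 0.05, 0 by DESeq2 and 0 by limma-voom), and 12 of the 15 log2 fold changes were negative, with a median of -0.11 beside -0.0022 over all genes in the same fit. The outer membrane channel Vdac1 stood at 0.23 (edgeR adjusted p = 0.301), C1qbp at -0.24 and the respiratory chain subunit Uqcrc1 at -0.22.

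Genes that the pathway switches on, through IRF3 or the interferon it induces, were read as a further list. It holds 30 genes, of which 27 were tested. Of these 2 rose in knockout samples (edgeR; 1.76% of all tested genes rose), none fell and 25 did not pass, and 4 of the 25 are members described above. The median log2 fold change was 0.20, with 19 positive and 8 negative values. Every knockout library was above every wild-type library for 6 of the 27, and 11.2% of all tested genes showed that.

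Rsad2, which encodes the antiviral enzyme viperin, had 27.1, 22.1 and 33.2 CPM in wild-type against 69.6, 73.5 and 44.6 CPM in knockout replicates. Its log2 fold change was 1.19 (SE 0.21, edgeR adjusted p = 0.0219). Ifit2, an interferon-induced RNA-binding protein, had 39.5, 23.7 and 32.6 CPM against 52.4, 70.5 and 52.8 CPM, which is 0.87 on the log2 scale (SE 0.20, edgeR adjusted p = 0.0443). Neither gene's groups overlapped. Among the genes that did not pass, Cxcl10 was called by DESeq2 and Ccl5 by limma-voom. The count of 2 varied with the libraries and the method: leaving out wild-type replicate 2, knockout replicate 1 or knockout replicate 2 gave 0, leaving out knockout replicate 3 gave 1, and leaving out wild-type replicates 1 and 3 gave 2 and 3. With library size alone 1 passed, with limma-voom or a replicate block 3, by DESeq2 4 and without a filter on low counts 6. The number passing over all genes varied as well, from 354 in the main fit. Without wild-type replicate 2 it was 151, and without knockout replicates 1, 2 and 3 it was 39, 64 and 36. By DESeq2 it was 778 of 11116 genes and without the filter 924 of 26519.

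The interferon genes themselves were near the detection limit. Ifnb1, which encodes interferon beta, had 7, 4 and 5 counts in wild-type and 7, 0 and 0 counts in knockout replicates, and a count of 0 allows up to 3 counts, or 0.201 and 0.22 CPM in those 2 libraries. Ifna4 had 5 counts in knockout replicate 2 and 0 in the other 5 libraries. Neither was tested, and a difference was not detectable at this depth.

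**Figure D5:**
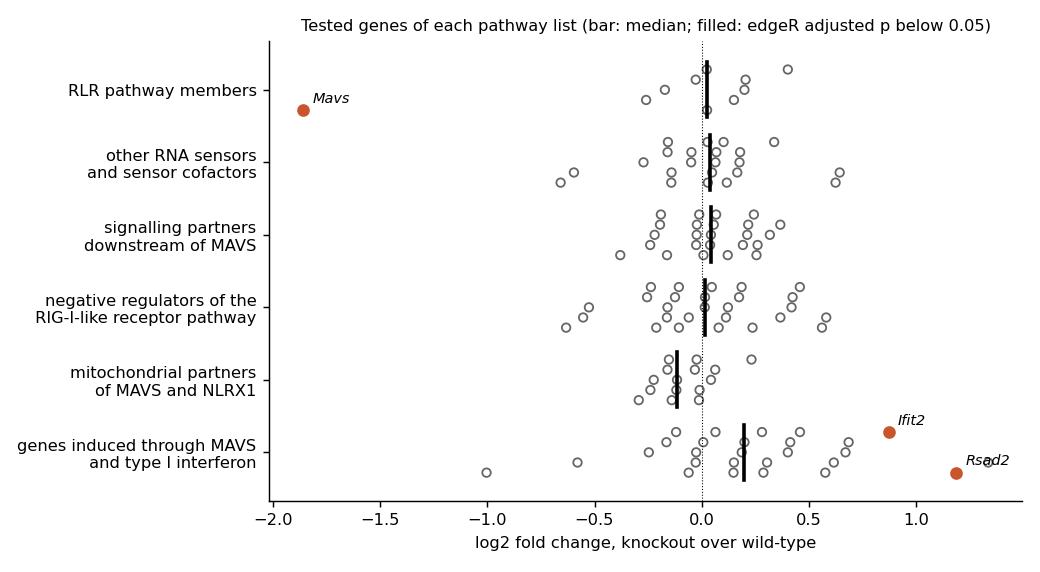
Log2 fold changes, knockout over wild-type (x axis), of the tested genes of the 10 members and of the 5 further lists (rows). Open points did not pass, filled points passed (edgeR adjusted p below 0.05) and bars are medians; Mavs, Rsad2 and Ifit2 are the filled points.

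The genes whose pattern over the 6 libraries was most like that of Mavs were sought among 8656 protein-coding genes with a mean of at least 5 CPM, by the root-mean-square difference of centred log2 CPM. They were Rrad (0.22 log2 units), Bub1b (0.25), Gprc5c (0.26), Kmo (0.27) and Inafm2 (0.29), beside a root-mean-square of 0.93 for the Mavs profile itself. Because the knockout sets the Mavs profile, the search returns genes that were lower in knockout samples. Their log2 fold changes ran from -1.92 (Inafm2) to -1.32 (Kmo), with edgeR adjusted p from 0.0081 to 0.0261. Whether they share control with Mavs was not tested. Bub1b and Inafm2 lie on chromosome 2, 12.6 and 12.5 Mb from Mavs. For the mean profile of the 3 sensors, with a root-mean-square of only 0.17, the nearest genes were Rabif (0.03), Dcakd (0.05), BC031181 (0.05), the interferon-induced Ifitm2 (0.05) and Pafah1b3 (0.05). Ifitm2 had 834, 728 and 888 CPM in wild-type versus 809, 1016 and 1006 CPM in knockout replicates.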

How the data were processed

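Trizol was used to extract RNA, per the labels' protocols. The authors deposited raw counts for each Ensembl mouse gene in 6 columns, 1 a sample. Named in the submitters' processing notes are the mm10 build, HISAT2 (also HISAT), HTSeq and DESeq2, with no version and no role for any of them. The annotation release and strand setting: not given in the sources used here. Symbols, positions and exon lengths came from GENCODE M21 (GRCm38), which matched 26383 of 26519 identifiers; the lengths may differ from the authors' annotation.

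All genes were fitted in edgeR 4.0.16 (R 4.3.3): genes kept by filterByExpr (counts of at least 10, totals of at least 15), scaled by TMM and compared by the quasi-likelihood F test with no covariate, Benjamini-Hochberg adjustment over 12580 genes, threshold 0.05. CPM carry the TMM factors, and the fit gave the SE and 95% intervals. Alternatives were other scalings and filters, DESeq2 1.42.0, limma-voom (limma 3.58.1), a replicate block, robust dispersion, thinning to the smallest total and leaving out each library. Members and lists were chosen with earlier results of these data known. From each list the text names the genes that passed or else the 3 with the smallest p, except that some are not reported here; Ifnb1, Ifna4 and Ifitm2's values were chosen after their values were seen, as were genes named for a call by another tool. On simulated counts (200 changed genes, 5 runs, 12250 genes tested) the procedure recovered 59.6% of changes of 2-fold, 15.6% of those of 1.5-fold and 84.8% of those of 4-fold, and 7.22% of its calls were false. Libraries of a group differed by more than sampling noise (14.9 to 34.8 in chi-square over its degrees of freedom).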

Additional observations from a re-analysis of the deposited data

How the results depend on the processing

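Mavs kept its direction and its call under all 15 alternatives, with log2 fold changes from -2.03 to -1.76 without one library (adjusted p 0.00232 to 0.0213) and from -2.03 to -1.82 otherwise. It was the 1 member past the threshold in each. Dhx58, Rnf135, Tbk1 and Nlrx1 kept their direction in all 15 and passed in none. With library size alone Ddx58 (-0.019), Ikbke (-0.15) and Irf3 (-0.15) turned negative, as the median of all tested genes moved to -0.17. Without one library at a time the ranges were -0.0085 to 0.34 for Ifih1, -0.12 to 0.10 for Trim25, -0.14 to 0.17 for Ikbke, -0.039 to 0.076 for Irf3, 0.073 to 0.26 for Ddx58, 0.25 to 0.51 for Dhx58, -0.44 to -0.05 for Rnf135, 0.11 to 0.28 for Tbk1 and -0.35 to -0.17 for Nlrx1.

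Over all genes, 354 passed, against 924 without a filter on low counts, 778 by DESeq2 and 36 to 277 without one library. The lowest counts, 39, 64 and 36, came without knockout replicates 1, 2 and 3, with 193 and 151 without wild-type replicates 1 and 2. The split of 222 higher and 132 lower became 102 and 341 with library size alone. The cause was not tested.

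Replicate numbers are shared by both groups, but same-numbered samples did not deviate together (correlations 0.0383, 0.0866 and -0.0428), and wild-type replicate 3 correlated best with knockout replicate 1. With a replicate block 414 genes passed, Mavs stood at -1.87, and of the members again 1 passed; Ifit2 missed the threshold (adjusted p = 0.0515). In the simulated counts 15.6% of 1.5-fold changes were called. With every library thinned to the smallest total 363 genes passed, against 354 at full depth.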
